A study of Drosophila melanogaster with 4 samples.

Results

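The genes of the proteasome, the protease complex that degrades ubiquitin-tagged proteins, were followed in Drosophila S2 cells through heat shock. Members were all genes whose FlyBase symbol begins with Rpn, Rpt, Prosalpha or Prosbeta and a number, which gave 48 of the 17697 genes listed. Of these, 32 encode the subunits of the ubiquitous particle, namely 7 of the alpha ring, 7 of the beta ring, 6 Rpt and 12 Rpn proteins. The other 16 are paralogues, whose symbols carry an R or a T after the number. RNA sequencing of poly(A) RNA was done in 2 heat shock libraries and 2 untreated libraries. S2 is an established cell line from late fly embryos, labelled as wild type, and all cells were grown at 27°C. Heat shock lasted 1 h at 37°C and was followed by 1 h at 27°C before lysis, so the values describe cells in recovery and not at the end of the heating. Untreated cells received no stress.

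The proteasome is a barrel-shaped core particle that carries a regulatory particle on its ends. The core is built of stacked alpha and beta rings. The alpha ring forms the gate, and some of the beta subunits hold the protease sites. The regulatory particle has a base, with a ring of Rpt ATPases that unfold substrates, and a lid, with the enzyme that removes ubiquitin. Each subunit is present in equal copies within its ring or particle, and in flies many of the subunits have a paralogue that is used mainly in the testis. Proteasome genes are best known for rising together when proteasome activity is blocked, in flies through the transcription factor cnc. Heat shock also damages proteins and strongly induces the chaperone genes.

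Library totals were 11988483 and 10602190 estimated counts after heat shock, against 10221418 and 10354706 in untreated cells. The 17 heat-induced chaperone genes set aside for scaling checks took 21.5% and 23.7% of the counts after heat shock, against 0.623% and 0.586% in untreated cells, and all 17 were higher. Fold changes below are therefore relative to the other genes after TMM scaling, which sets the bulk of genes near 0. Levels are given as CPM, counts relative to the scaled library total, or, where genes are compared with each other, as TPM, the share of all transcripts after correction for gene length. Markers of the blood cell lineage of S2 cells were uneven. The transcription factor gene srp had 273.4 and 250.5 CPM after heat shock, against 188.6 and 217.1 CPM in untreated cells, whereas Hml and Pxn lay between 1.0 and 3.2 CPM, and NimC1 and He at 0.1 CPM or less. Of the 8 markers 6 were tested and 4 were higher in edgeR. These were srp and ush (0.37 each on the log2 scale) and the collagen genes vkg (0.29) and Col4a1 (0.23). Hml and Pxn had negative values, -0.43 and -0.35, that were not called (edgeR adjusted p = 0.347 and 0.352). The 8 markers summed to 868 and 780.5 CPM after heat shock, against 619.9 and 676.4 CPM in untreated cells. Of 3 neuron markers nSyb was higher (3.27), with 2.89 and 1.95 CPM after heat shock against 0.320 and 0.163 CPM in untreated cells, and of 3 muscle markers Mlc2 was higher (0.46). The part of these markers' changes in the proteasome results was not tested. The 12 testis and germline markers summed to 14.2 and 14.1 CPM after heat shock, against 12.8 and 13.0 CPM in untreated cells. Most of this was bam, with 9.18 and 9.39 CPM after heat shock against 7.845 and 8.65 CPM in untreated cells. The values of bam (0.17) and topi (-0.39) were not called (edgeR adjusted p = 0.366 and 0.262). The untested betaTub85D had 1.60 and 0.80 CPM after heat shock, against 0.24 and 0 CPM in untreated cells. The labels do not say whether the untreated replicates were separate cultures, so p-values measure the spread between libraries, which may be technical.

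Few proteasome genes were higher after heat shock, and those that changed were mostly slightly lower. Of the 36 members with enough counts for the test, 9 were lower and 1 was higher at an edgeR adjusted p-value under 0.05. All 10 belong to the ubiquitous particle, and 26 members did not pass the threshold. Among all 8784 genes tested, 18.9% were lower and 21.6% were higher (40.5% in either direction). The members' share of falls under these settings, 9 of 36, can be read against the 18.9%, and their share of rises, 1 of 36, against the 21.6%. The count of falls moved with the method. DESeq2 gave 6 members lower and 1 higher, against 6.85% lower and 13.1% higher among the same 8784 genes. Without the low-count filter 17 members were lower and 1 was higher, against 25.1% and 20.4% of these genes. With libraries paired crosswise as a block, a choice made after seeing the data, 17 were lower and 2 higher, against 26.4% and 26.5%. The changes were small. The median log2 fold change of the 32 ubiquitous subunits was -0.16, which is 0.897-fold, against -0.02 for all tested genes, and single values ran from -0.75 to 0.50. In bulk RNA, fewer cells with a transcript and less of it per cell cannot be told apart.

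The 2 replicates of a group lay close together for these genes. Between the heat shock libraries the median absolute log2 difference in CPM was 0.06 over the 32 subunits, with a maximum of 0.27 for Prosbeta5. Between the untreated libraries it was 0.08, with a maximum of 0.30 for Prosalpha5. Both heat shock libraries lay below both untreated libraries for 20 of the 32 subunits and above both for 2, and the groups overlapped for 10. Over all tested genes 37.8% had both heat shock libraries below and 34.4% had both above. For each of the 22 subunits that did not pass the threshold, the 95% interval of the log2 fold change stayed within a 1.5-fold change either way, the widest bounds being -0.51 for Prosalpha5 and 0.31 for Rpt3. The interval excluded 0 for 6 of these 22, each on the lower side, before adjustment for multiple testing.

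**Figure D1:**
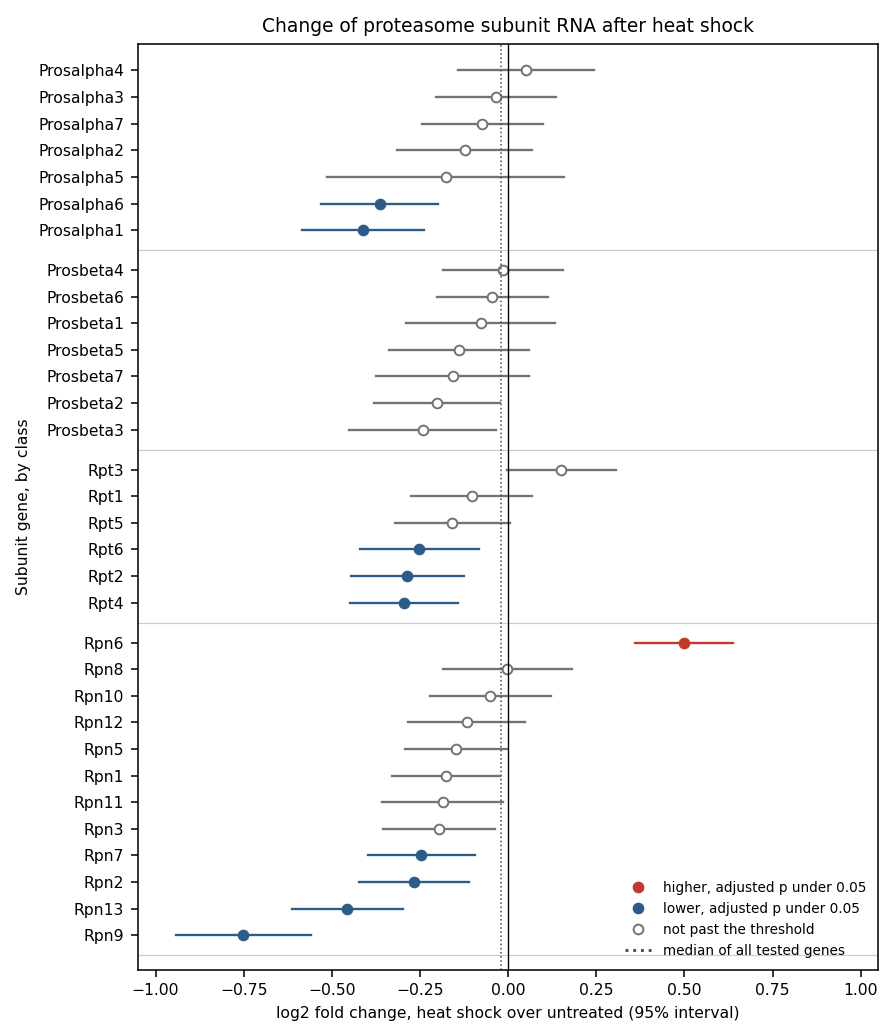
Log2 fold change of the 32 ubiquitous subunit genes, heat shock over untreated, with 95% intervals from the edgeR fit, in the order alpha ring, beta ring, Rpt ring and Rpn subunits from the top. Filled points passed an adjusted p-value of 0.05, and the dotted line is the median of all tested genes (-0.02). Rpn6 is the single filled point on the right of 0, and 9 filled points lie on the left, with Rpn9 farthest out at -0.75.

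The balance of rises and falls among the calls rested on the scaling of the libraries. With library totals and no TMM factor, the median of all tested genes moved by -0.53, 34 members were lower and 0 were higher, against 71.6% lower and 8.87% higher in all genes. In that fit 11% of all calls were rises, compared with 53.3% under TMM. With totals that leave out the heat shock genes the median moved by -0.17, rises were 27.8% of all calls, and 25 members were lower with 1 higher, against 39.0% lower in all genes. The distance of the 32 subunits from all genes stayed nearly the same, at -0.14, -0.13 and -0.13 on the log2 scale with totals only, totals without heat shock genes and TMM.

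The lid held both the largest fall and the only rise. Rpn9 (FBgn0028691, 3R, 23731375 to 23733462 on the BDGP6 assembly, as for all positions given), a structural lid subunit, had 24.3 and 25.2 CPM after heat shock, against 41.9 and 41.4 CPM in untreated cells. Its log2 fold change was -0.75 ± 0.09 (SE, edgeR adjusted p = 1.63e-04), a level 0.594-fold that of untreated cells. The libraries of each group nearly coincided and the groups stood well apart. This change lay at percentile 3.68 of all tested genes, and it kept its direction and call under every alternative listed in the closing section, from -1.29 to -0.73.

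Rpn6 (FBgn0028689, 2R, 14750166 to 14752910), which in yeast clamps the lid onto the core, moved the other way. It had 226 and 228 CPM after heat shock, against 165 and 156 CPM in untreated cells. The log2 fold change was 0.50 ± 0.06 (SE, edgeR adjusted p = 2.79e-04), or 1.41-fold, at percentile 83.7 of all tested genes. Both heat shock libraries were higher than both untreated ones. With library totals only and on TPM values its values were -0.04 and -0.02 on the log2 scale, while the other 31 ubiquitous subunits were lower in both of these fits.

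Rpn7, another structural lid subunit, was the second lid gene to fall. It had 54.0 and 54.3 CPM after heat shock, against 64.0 and 64.4 CPM in untreated cells, a log2 fold change of -0.25 ± 0.07 (SE, edgeR adjusted p = 0.0169). The call was lost without the first heat shock library (-0.25, adjusted p = 0.0939), without the second (-0.26, adjusted p = 0.0678) and in DESeq2 (-0.26, adjusted p = 0.174).

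The other 5 lid genes did not pass the threshold. Rpn8, the partner of the ubiquitin-removing enzyme, was the most even, with 36.5 and 36.3 CPM after heat shock against 35.9 and 37.1 CPM in untreated cells. Rpn11, that enzyme itself, had 53.8 and 49.0 CPM against 59.5 and 57.6 CPM. The structural subunit Rpn5 had 104.8 and 107.9 CPM after heat shock and 116.1 and 119.6 CPM in untreated cells. For Rpn11 and Rpn5, both heat shock libraries were the lower ones, by -0.19 and -0.15 on the log2 scale in the fit (edgeR adjusted p = 0.0774 and 0.0929). Rpn12 had 59.2 and 61.8 CPM after heat shock, against 68.3 and 62.9 CPM in untreated cells (-0.12). Rpn3 had 58.3 and 56.1 CPM after heat shock, against 67.5 and 63.7 CPM in untreated cells. Its fitted value of -0.20 lay just outside the threshold (edgeR adjusted p = 0.0504) and inside it without the second untreated library (-0.24, adjusted p = 0.025).

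In the base, 5 of 10 genes were lower and none was higher, against 18.9% lower and 21.6% higher among all tested genes. Rpn13 (FBgn0033886, 2R, 13958545 to 13960404), a receptor for ubiquitin chains, fell most, with 74.5 and 78.1 CPM after heat shock against 107.3 and 102.1 CPM in untreated cells. Its log2 fold change was -0.46 ± 0.07 (SE, edgeR adjusted p = 9.60e-04), or 0.729-fold. The groups did not overlap, and the call held under every alternative in the closing section. Rpn2, a scaffold of the base, had 113.0 and 115.6 CPM after heat shock, against 131.3 and 143.9 CPM in untreated cells. Its log2 fold change was -0.27 ± 0.07 (SE, edgeR adjusted p = 0.0132), and without the second untreated library it was -0.20 and not past the threshold (adjusted p = 0.0912).

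The remaining Rpn genes of the base did not pass the threshold. Rpn10, another ubiquitin receptor, had 96.8 and 101.2 CPM after heat shock, against 108.3 and 96.7 CPM in untreated cells, so the groups overlapped. The fitted difference was -0.05 on the log2 scale (edgeR adjusted p = 0.628), and 0.03 without the first untreated library. Rpn1, the second scaffold, had 127.7 and 135.5 CPM after heat shock, against 154.1 and 143.3 CPM in untreated cells. Its value of -0.18 did not pass the threshold (adjusted p = 0.0638), but it did without the second untreated library (-0.23, adjusted p = 0.0495) and without the second heat shock library (-0.22, adjusted p = 0.0402).

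The Rpt ATPases, which form the unfolding ring of the base, split into 3 lower genes and 3 that did not pass the threshold. Of all tested genes 18.9% were lower and 21.6% higher. Rpt4 (FBgn0028685, X, 6289470 to 6291245) had 81.2 and 77.8 CPM after heat shock, against 98.16 and 97.01 CPM in untreated cells, a log2 fold change of -0.30 ± 0.07 (SE, edgeR adjusted p = 0.00778). Rpt2 had 80.9 and 81.4 CPM after heat shock, against 95.2 and 102.8 CPM in untreated cells (-0.29, adjusted p = 0.0112). Rpt6 had 68.4 and 67.6 CPM after heat shock, against 84.9 and 77.1 CPM in untreated cells (-0.25, adjusted p = 0.0244). In these 3 genes both heat shock libraries were the lower ones. Rpt4 held its call under every alternative. In DESeq2 the calls of Rpt2 (adjusted p = 0.053) and Rpt6 (adjusted p = 0.131) were lost, and that of Rpt6 also without the first untreated library (-0.19, adjusted p = 0.165) or the second heat shock library (-0.25, adjusted p = 0.0533).

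Rpt3 was the only ATPase gene above its untreated level, and by less than the test could separate. It had 58.8 and 59.2 CPM after heat shock, against 53.3 and 52.9 CPM in untreated cells. The groups did not overlap, yet the log2 fold change of 0.15 ± 0.07 (SE) had an edgeR adjusted p-value of 0.106. With totals without heat shock genes it was -0.02. With totals only it was -0.38 and past the threshold as a fall. Rpt1 had 109.1 and 112.5 CPM after heat shock, against 126.4 and 111.4 CPM in untreated cells, and Rpt5 had 77.9 and 81.0 CPM after heat shock, against 91.7 and 85.6 CPM in untreated cells. Their log2 fold changes were -0.10 and -0.16, with adjusted p-values of 0.304 and 0.108.

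In the alpha ring, 2 of 7 genes were lower and none was higher, against 18.9% lower and 21.6% higher among all tested genes. Prosalpha6 (FBgn0250843, 2L, 10221351 to 10222546) had 44.6 and 47.3 CPM after heat shock, against 60.0 and 58.1 CPM in untreated cells. Its log2 fold change was -0.36 ± 0.07 (SE, edgeR adjusted p = 0.00422), or 0.777-fold. Prosalpha1 (FBgn0263121, 2R, 7827303 to 7828678) had 38.5 and 37.2 CPM after heat shock, against 49.9 and 50.9 CPM in untreated cells, at -0.41 ± 0.08 (SE, edgeR adjusted p = 0.00269). Both genes had groups that stood apart and kept their calls under every alternative. Prosalpha1, however, shares reads with a neighbouring copy, which is treated with the paralogues. Its SE and p-value leave out the uncertainty of that division of reads, which these alternatives did not vary either.

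The other alpha ring genes did not pass the threshold. Prosalpha3 had 44.1 and 43.9 CPM after heat shock, against 44.3 and 45.8 CPM in untreated cells. Prosalpha7 had 46.3 and 43.9 CPM after heat shock, against 46.9 and 48.0 CPM in untreated cells. Prosalpha2 had 64.6 and 54.9 CPM after heat shock, against 64.3 and 66.0 CPM in untreated cells, so that only the second heat shock library was low. Prosalpha4 was the highest of the class by fold change, at 0.05 ± 0.09 (SE), with 48.1 and 52.9 CPM after heat shock against 51.1 and 46.1 CPM in untreated cells. Without the second library of either group its value was slightly below 0 (-0.03 and -0.02), and with totals only it was -0.48. Prosalpha5 was the least abundant subunit, with 10.7 and 12.5 CPM after heat shock against 14.4 and 11.7 CPM in untreated cells, and had the widest interval, from -0.51 to 0.16. These 5 genes had edgeR adjusted p-values from 0.273 to 0.737.

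No beta ring gene passed the threshold in edgeR, although all 7 values were negative and 2 had an unadjusted p-value under 0.05. DESeq2 called none of the 7 either. Of the subunits with protease sites, Prosbeta1 (caspase-like activity) had 37.8 and 41.8 CPM after heat shock, against 44.6 and 39.3 CPM in untreated cells. Prosbeta2 (trypsin-like activity) had 67.2 and 61.3 CPM after heat shock, against 70.6 and 77.4 CPM in untreated cells. Prosbeta5 (chymotrypsin-like activity) had 112.1 and 92.8 CPM after heat shock, against 112.2 and 113.7 CPM in untreated cells. Their log2 fold changes were -0.08, -0.20 and -0.14, and only Prosbeta1 had overlapping groups. For Prosbeta5 the groups were barely apart, at 112.14 CPM in the first heat shock library against 112.22 CPM in the first untreated library. Without the second heat shock library its value was -0.02.

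The other 4 beta genes, which have no protease site of their own, had values between -0.24 and -0.01. Prosbeta3 had the lowest value of the ring, -0.24 ± 0.09 (SE, edgeR adjusted p = 0.0629), with 29.4 and 31.6 CPM after heat shock against 37.8 and 34.3 CPM in untreated cells. Prosbeta4 had 72.0 and 65.6 CPM after heat shock, against 67.7 and 71.5 CPM in untreated cells (-0.01). Prosbeta6 had 112.5 and 119.6 CPM after heat shock, against 124.3 and 115.04 CPM in untreated cells (-0.05). Prosbeta7 had 52.5 and 53.7 CPM after heat shock, against 64.9 and 53.4 CPM in untreated cells (-0.16). Leaving out 1 library brought a few of the ring past the threshold as falls. These were Prosbeta2 without the first untreated or the first heat shock library (-0.27 in each case), Prosbeta5 without the first heat shock library (-0.29), and Prosbeta3 and Prosbeta7 without the second untreated library (-0.31 and -0.30).

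Core and regulatory particle were then set side by side. In the core, 2 of 14 genes were lower and none was higher, with a median log2 fold change of -0.13. In the regulatory particle, 7 of 18 were lower and 1 was higher, with a median of -0.18. Of all tested genes 18.9% were lower and 21.6% higher. The core count was 4 without the second untreated library and also 4 without the first heat shock library. In DESeq2, 4 regulatory genes and 2 core genes were lower, against 6.85% of all genes. Within the regulatory particle, the lid had 2 lower and 1 higher of 8 genes and the base 5 lower of 10. The difference between these counts was not tested.

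**Figure D2:**
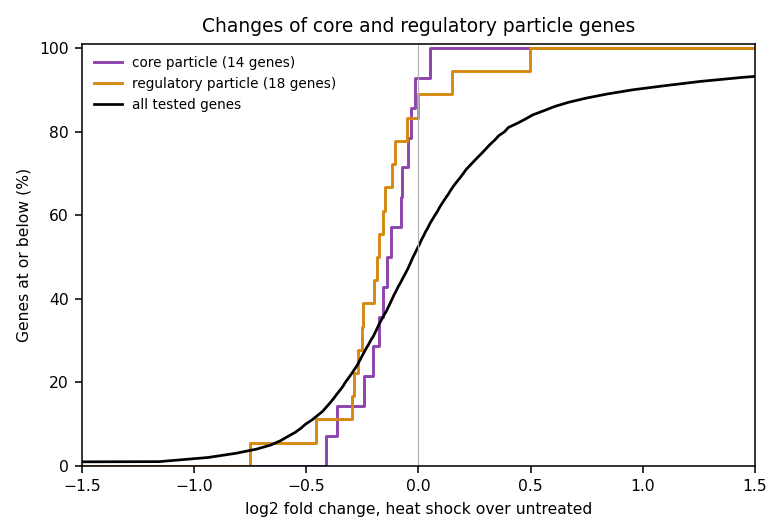
Cumulative share of genes (%) at or below each log2 fold change, heat shock over untreated, for the 14 core genes, the 18 regulatory particle genes and all 8784 tested genes; genes beyond the plotted range are not drawn. Both particles rise steeply just left of 0, with medians of -0.13 and -0.18, while the curve of all genes is far broader.

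Summed over each particle, the core and the regulatory particle gave similar ratios on either scale. On TMM-scaled CPM the core genes summed to 781 and 759 after heat shock, against 853 and 831 in untreated cells, a ratio of means of 0.914. The regulatory particle genes summed to 1505 and 1528 CPM after heat shock, against 1669 and 1615 CPM in untreated cells, a ratio of 0.924. On the TPM scale, which is a share of all transcripts, the core summed to 1246 and 1203 TPM after heat shock, against 1969 and 1863.5 TPM in untreated cells. The regulatory particle summed to 1396 and 1402 TPM after heat shock, against 2255 and 2106 TPM in untreated cells. These ratios were 0.639 and 0.641. Core over regulatory TPM was 0.893 and 0.858 after heat shock, against 0.873 and 0.885 in untreated cells, and the groups overlapped. The difference of the log2 ratios was -0.006, beside an SD between libraries of 0.030 (n = 2 each), and it lay between -0.034 and 0.022 when 1 library was left out. No test was made of these sums.

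**Figure D3:**
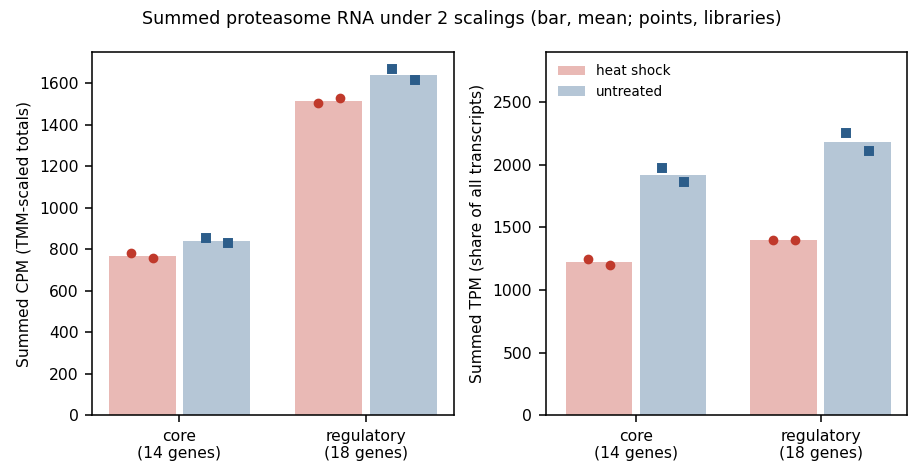
Summed level of the 14 core and the 18 regulatory particle genes in CPM on TMM-scaled totals (left) and in TPM (right); bars are means of 2 libraries, points are libraries, heat shock left of untreated. The sums after heat shock are 0.914 and 0.924 of the untreated ones on the left, and 0.639 and 0.641 on the right.

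Levels of single subunits, compared per length as TPM, differed widely in spite of their equal copy number in the complex. Untreated cells had a median of 122 TPM over the 32 subunits, with quartiles at 98.04 and 157.4 TPM. Prosbeta6 was the most abundant, with 185.3 and 195.3 TPM after heat shock and 296.2 and 266.2 TPM in untreated cells. Prosalpha5 was the least abundant, with 18.9 and 21.9 TPM after heat shock and 36.8 and 28.9 TPM in untreated cells. The highest exceeded the lowest 9.34-fold after heat shock and 8.55-fold in untreated cells. The second highest exceeded the second lowest 4-fold in untreated cells. Of the 31 pairs of neighbours in the untreated order, 21 overlapped in their replicates, so most neighbours in that order could not be separated.

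The order of levels changed little with heat shock. Mean TPM values of the groups had a Spearman correlation of 0.960 across the 32 subunits, which share libraries and gene lengths, beside 0.980 between the heat shock replicates and 0.972 between the untreated replicates. The beta ring genes Prosbeta6, Prosbeta5 and Prosbeta4 led the untreated order, followed by Rpn6. After heat shock Rpn6 was second, with 187.6 and 187.2 TPM against 198.2 and 181.6 TPM in untreated cells. Prosalpha1 moved by 7 places, the most of all, with 61.8 and 59.1 TPM after heat shock against 116.2 and 114.9 TPM in untreated cells. Its level rests on an uncertain division of reads with Prosalpha1R, so the size of this move is uncertain too. Rpn13 moved down by 6 places. Rpn9 had 27.1 and 28.0 TPM after heat shock, against 68.6 and 65.0 TPM in untreated cells, and changed places with Rpn8.

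**Figure D4:**
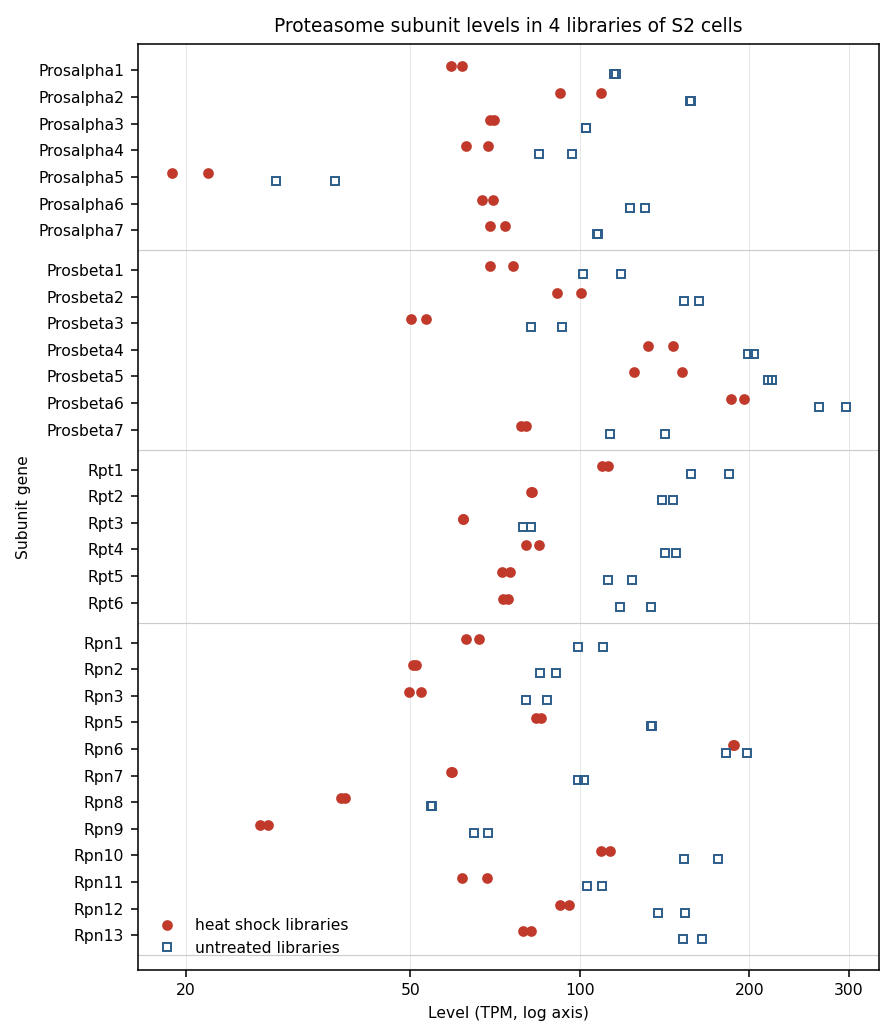
Level in TPM (log axis) of each of the 32 ubiquitous subunit genes in 2 heat shock libraries (filled circles) and 2 untreated libraries (open squares), in the order alpha ring, beta ring, Rpt ring and Rpn subunits from the top. Circles lie left of squares for most genes, on a scale where chaperone transcripts count toward the total. Rpn6 is an exception, at 187.6 and 187.2 TPM against 198.2 and 181.6 TPM.

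The paralogues fell into 2 kinds, 1 gene with a high level and 15 that were low or not detected. Prosalpha1R (FBgn0050382, 2R, 7830413 to 7831771) lies 1734 bases from Prosalpha1 on the same strand. It had 204.0 and 223.9 TPM after heat shock, against 359.1 and 319.4 TPM in untreated cells, and so exceeded Prosalpha1 and every other subunit gene in each library. Of the TPM assigned to the pair, Prosalpha1R took 76.7% and 79.1% after heat shock, against 75.6% and 73.5% in untreated cells. It was the only paralogue at or above the level of the least abundant ubiquitous subunit.

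The division of reads within this pair is uncertain. The posterior SD of the counts, a measure of how freely reads could be assigned to either gene, was 122.72 and 129.74 counts after heat shock and 129.50 and 154.53 counts in untreated cells. That was 31.8% and 39.9% of the Prosalpha1 count after heat shock, and 20.8% and 24.8% in untreated cells. Of the Prosalpha1R count it was 9.8% and 10.7% after heat shock, and 6.82% and 9.06% in untreated cells. The lead of Prosalpha1R over Rpn6 in the first heat shock library, 204.0 against 187.6 TPM, is therefore not settled. No other proteasome gene had a posterior SD above 2.99 counts. In CPM, Prosalpha1R had 125.0 and 138.2 after heat shock, against 152.0 and 139.3 in untreated cells, which is -0.15 on the log2 scale (edgeR adjusted p = 0.145). Without the second heat shock library it was -0.23 and past the threshold (adjusted p = 0.0391). Summed before the fit, a check chosen after seeing the data, the pair had 163.5 and 175.5 CPM after heat shock, against 202.0 and 190.1 CPM in untreated cells. This sum was lower, at -0.21 ± 0.07 (SE, edgeR adjusted p = 0.0307).

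Of the other paralogues, 3 had at least 10 counts in a library. Rpt3R had 43 and 36 counts after heat shock, against 63 and 54 in untreated cells, and took 6.86% and 6.57% of the TPM of Rpt3R plus Rpt3 after heat shock, against 8.66% and 7.68% in untreated cells. Rpt6R had 23 and 26 counts after heat shock, against 45 and 33 in untreated cells, or 3.15% and 4.10% of the TPM with Rpt6 after heat shock and 3.96% and 3.28% in untreated cells. Prosbeta2R2 had 21 and 17 counts after heat shock, against 31 and 20 in untreated cells, or 2.36% and 2.40% of the TPM with Prosbeta2 after heat shock and 2.66% and 1.61% in untreated cells. None of these 3 passed the threshold, with log2 fold changes of -0.17 ± 0.20, -0.27 ± 0.27 and -0.02 ± 0.31 (SE). For Prosbeta2R2 the sign turned without the first untreated library (0.30) or the second heat shock library (0.02).

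The remaining 12 paralogues were not tested, and no library held more than 3 counts of any of them. Prosalpha3T, Prosalpha4T1, Prosbeta4R1, Prosbeta4R2 and Prosbeta5R1 had 0 counts in all 4 libraries, which allows up to 0.299 and 0.344 CPM after heat shock, and up to 0.240 and 0.245 CPM in untreated cells, as far as counting error goes. Prosalpha4T2, Prosalpha6T, Prosbeta2R1, Prosbeta5R2, Rpn12R, Rpn13R and Rpt4R had between 0 and 3 counts in a library. Together the 12 held 10 and 4 counts after heat shock, against 5 and 5 in untreated cells. A response of these genes to heat shock was not detectable at this depth.

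**Figure D5:**
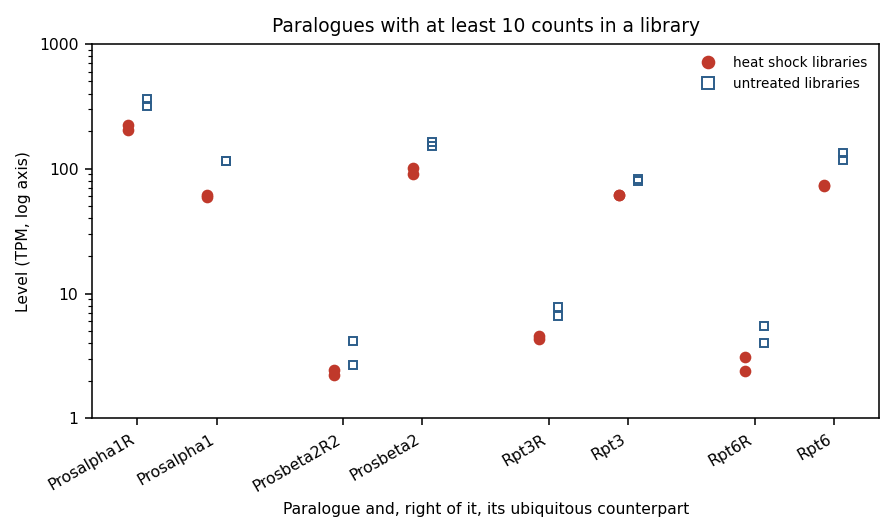
Level in TPM (log axis) of the 4 paralogues with at least 10 counts in a library, each beside its ubiquitous counterpart, in 2 heat shock libraries (filled circles) and 2 untreated libraries (open squares). Prosalpha1R lies above Prosalpha1 in each library, whereas Prosbeta2R2, Rpt3R and Rpt6R lie far below their counterparts.

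Some subunit genes overlap a neighbour on the other strand, and the counting is not stated to use strand. Exons of 13 of the 32 ubiquitous genes overlap exons of another gene, by more than 5% of their exon bases in 7. CG10365, which shares 7.4% of the exon bases of Rpn9, was at -0.03 on the log2 scale (edgeR adjusted p = 0.747). The partner of Rpt6, CG1801, had at most 0.301 CPM in a library. The partners of Rpt4 and Rpn7 were lower, as their subunit genes were, with wuho at -0.53 (adjusted p = 9.29e-04) and CG34376 at -0.38 (adjusted p = 0.0173). They share 6.3% of the exon bases of either subunit gene, and their part in its change was not tested.

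Genes that work with the proteasome gave a mixed result. Of 18 such genes, 16 matched and were tested, and 3 were higher and 5 lower in edgeR, against 21.6% and 18.9% of all genes, with a median log2 fold change of 0.02. Among 7 accessory and assembly genes, Usp14, a ubiquitin-removing enzyme that binds the base, was lower, with 64.6 and 62.0 CPM after heat shock against 82.0 and 75.6 CPM in untreated cells (-0.32, adjusted p = 0.00843). The other 6, among them the maturation factor Pomp (0.12) and the lid subunit Sem1 (0.16), which the symbol rule leaves out, did not pass the threshold. Of 6 genes for substrate delivery, the shuttle factor Ubqn was higher and 4 were lower. Ufd1-like, an adaptor of the p97 unfoldase, fell most, with 20.7 and 24.4 CPM after heat shock against 33.6 and 28.8 CPM in untreated cells (-0.48, adjusted p = 0.0108). In DESeq2 cnc alone of the 16 passed the threshold, so that the 5 falls and the rises of Ubqn (0.18, adjusted p = 0.0962) and maf-S (0.26, adjusted p = 0.191) were lost.

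The transcription factor gene cnc, which in flies drives proteasome genes when the proteasome is impaired, was higher, with 196.6 and 194.0 CPM after heat shock against 147.8 and 152.5 CPM in untreated cells (0.38 ± 0.06 SE, edgeR adjusted p = 0.00119). Its partner maf-S had 68.5 and 83.0 CPM after heat shock, against 62.0 and 63.2 CPM in untreated cells (0.27 ± 0.09 SE, adjusted p = 0.0396). The call of maf-S was also lost in limma-voom (0.27, adjusted p = 0.0535), with totals without heat shock genes (0.10, adjusted p = 0.392), and without the second heat shock library (0.13) or the first untreated library (0.25). Both genes had negative values with library totals only and on TPM. RNA levels alone were measured, and neither cnc protein nor proteasome activity.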

How the data were processed

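Poly(A) RNA of S2 cells was sequenced as 50-base reads in 4 libraries, 2 per group, grouped by the stress given in the labels. The deposited tables hold estimated counts (RSEM's expected counts) and TPM values, made per the labels with Trimmomatic 0.36, STAR 2.6.1c and RSEM 1.3.1 on the dm6 assembly. RSEM shares ambiguous reads among genes and the authors also deposited its posterior SD of each count. Its options and any use of strand are not given in the sources used here, and the study's methods name featureCounts instead. Tables of pooled replicates were not used.

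Symbols were matched for 17570 of 17697 genes, with 1-based coordinates from a later annotation of the same assembly. Counts were rounded, filtered with filterByExpr, scaled with TMM and tested with the robust quasi-likelihood test of edgeR 4.0.16 (R 4.3.3), with Benjamini-Hochberg adjustment over all 8784 tested genes. CPM values use TMM-scaled totals. Standard errors come from the fold change and its F statistic. Counts were simulated for heat shock against untreated with 200 genes changed, and 8666 genes were tested. Of changes of 0.5 and of 1 on the log2 scale, 58.7% and 86.2% were recovered, and 5.96% of calls were false. The simulation gave all genes the same spread beyond counting error and changed far fewer genes than were called in the data. These rates therefore need not hold for the subunits. Counts cover 107 to 2267 reads per ubiquitous subunit and library, and floors of 3 counts cover counting error only. Alternatives were DESeq2 1.42.0, limma 3.58.1 on voom values and on log2(TPM + 1) or log2(TPM + 0.1), other scalings, filters and thresholds, a replicate block and leaving out each library. The members, gene lists and tests were chosen with earlier results of these data known. Values in every library are given for the highest 2 and lowest 1 fold changes of each subunit class, for all subunits not past the threshold and for paralogues with at least 10 counts, and of the partner genes for the 2 highest and 2 lowest calls. Of 18 partner symbols, 2 (Ecm29 and TER94) were not matched and are not analysed here. Overlaps of subunit exons with other genes are given for some of the overlapping genes, and the rest are not reported here.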

Additional observations from a re-analysis of the deposited data

How the results depend on the processing

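The calls of Rpn9, Rpn13, Rpt4, Prosalpha1 and Prosalpha6 held under each alternative run, and these are the 5 members lower at an adjusted p under 0.01, where 2084 genes passed. For Prosalpha1 none of these runs varied the uncertain division of reads with Prosalpha1R. DESeq2 called 1824 genes, with 1 partner gene higher. Library totals only gave 7067 genes, 34 members lower and 0 higher, and 0 partner genes higher. Limma on log2(TPM + 1) and log2(TPM + 0.1) gave 6866 and 6803 genes, each with 34 members lower, 0 higher and 0 partner genes higher. Among all 8784 tested genes, 6109 and 6066 were lower and 757 and 737 higher in these 2 runs. Totals without heat shock genes gave 25 members lower and 1 partner gene higher, and no low-count filter gave 17 members lower. With totals only and on both TPM scales signs turned in Rpn6 (-0.04, -0.02, -0.02), Rpt3 (-0.38, -0.37, -0.38), Prosalpha4 (-0.48, -0.46, -0.46), cnc (-0.16, -0.15, -0.16) and maf-S (-0.26, -0.25, -0.25), and with totals without heat shock genes in Rpt3 (-0.02) and Prosalpha4 (-0.12). These fits have no TMM factor. Values near 0 changed sign for Rpn8 (0.02 with DESeq2 size factors, 0.02 with at least 10 counts in every library), Prosbeta4 (0.00 and 0.01) and Prosbeta2R2 (0.01 with limma-voom), and the cause was not tested.

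When 1 library was left out, the ranges were 1 to 5 for partner genes higher, 9 to 12 for members lower, -0.13 to 0.03 for Rpn10, -0.03 to 0.02 for Rpn8, -0.03 to 0.12 for Prosalpha4, -0.17 to 0.01 for Prosbeta1, -0.09 to 0.04 for Prosbeta4, -0.10 to 0.00 for Prosbeta6 and -0.30 to 0.30 for Prosbeta2R2. An arm left with 1 library was assumed to vary like the other. Same-numbered libraries did not deviate together (correlation -0.167 over 8784 genes and -0.379 over the 5735 genes at 10 CPM or more). With the replicate number as a block 3272 genes were called, 1511 lower and 1761 higher, with 9 members lower and 1 higher. The crossed pairing, a block chosen after seeing the data, gave 17 members lower and 2 higher. Depth limits the 12 untested paralogues, and 2 libraries a group limit small changes.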
